A study of Mus musculus with 2 samples.

Results

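The genes described here are 7 mouse genes whose products act in the formation of meiotic DNA double-strand breaks or direct where they form: Spo11, Mei1, Mei4, Rec114, Iho1 (also called Ccdc36), Ankrd31 and Prdm9. They were chosen by name, for this known role, with earlier results of these data known. All 7 of 7 were found among the 42422 genes of the count table. All 7 were also among the 15252 genes kept after the filter on low counts, so each could be tested.

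RNA was measured in germ cells of E12.5 mouse embryos from males carrying the Oct4-eGFP reporter on an inbred 129T2svJ background crossed with Swiss females. Gonads with the mesonephros attached were either not cultured (0 h) or kept in culture for 24 or 72 h. The medium held DMSO as vehicle, BGJ398 at 500 nM, which blocks FGF receptors (FGFRi), or PD0325901 at 500 nM, which blocks MEK1/2 (MEKi). After removal of the mesonephros, the gonads of several embryos were pooled and GFP-positive germ cells were sorted, so each library is a pool of embryos and every group, controls included, carries the reporter. The 10 groups of 4 libraries were XX 0 h, XY 0 h, XX 24 h DMSO, XX 72 h DMSO, and XY 24 h and 72 h with DMSO, FGFRi or MEKi. No XX cells were treated with an inhibitor.

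Meiotic recombination starts with programmed breaks made by SPO11 together with its partner TOPOVIBL (gene Top6bl). REC114, MEI4 and IHO1 assemble along chromosome axes and are needed for break formation, ANKRD31 binds REC114 and is needed for breaks in the region shared by the X and Y chromosomes, and MEI1 is also needed for breaks. PRDM9 methylates histone H3 at the DNA sites it binds and so places the breaks. In the foetal ovary XX germ cells enter meiosis around this age, while XY germ cells of the foetal testis enter mitotic arrest and postpone meiosis until after birth. STRA8 and MEIOSIN together switch on many meiotic genes, and E2F6 represses many of them in other cells.

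Start regions are shown for the 5 genes that rose in XX germ cells from 24 to 72 h and for Rec114, which did not pass that test, so that the letters of each can be compared. Iho1 is shown at both of its annotated starts. Each runs from 250 bases before to 50 bases after the annotated start (GRCm39, GENCODE M39) and is written 5′ to 3′ on the gene's own strand. Capitals mark 3 letter runs that were searched on both strands, CCTCAG (the core of the STRA8-MEIOSIN motif), CACGTG (an E-box) and TCCCGC (the core of the E2F6 motif).
Prdm9, chr17:15784565-15784864, minus strand: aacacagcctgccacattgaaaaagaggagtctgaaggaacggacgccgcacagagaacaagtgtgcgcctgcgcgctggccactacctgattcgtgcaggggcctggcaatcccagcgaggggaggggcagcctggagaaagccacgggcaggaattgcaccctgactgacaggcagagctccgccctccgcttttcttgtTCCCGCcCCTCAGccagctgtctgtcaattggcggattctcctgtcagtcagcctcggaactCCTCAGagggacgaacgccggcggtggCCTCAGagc
Ankrd31, chr13:96884506-96884805, plus strand: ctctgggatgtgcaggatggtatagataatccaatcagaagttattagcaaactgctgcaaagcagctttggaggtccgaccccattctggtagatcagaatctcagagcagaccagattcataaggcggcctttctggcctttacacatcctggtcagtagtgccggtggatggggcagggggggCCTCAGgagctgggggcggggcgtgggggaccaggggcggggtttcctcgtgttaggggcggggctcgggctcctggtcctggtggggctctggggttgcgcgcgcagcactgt
Mei1, chr15:81953948-81954247, plus strand: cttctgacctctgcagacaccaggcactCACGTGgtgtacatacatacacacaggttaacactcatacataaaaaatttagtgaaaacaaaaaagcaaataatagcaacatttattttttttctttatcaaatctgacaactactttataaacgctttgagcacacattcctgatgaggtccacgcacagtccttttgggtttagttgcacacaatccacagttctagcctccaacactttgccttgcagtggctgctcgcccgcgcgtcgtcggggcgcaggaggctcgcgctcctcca
Spo11, chr2:172821361-172821660, plus strand: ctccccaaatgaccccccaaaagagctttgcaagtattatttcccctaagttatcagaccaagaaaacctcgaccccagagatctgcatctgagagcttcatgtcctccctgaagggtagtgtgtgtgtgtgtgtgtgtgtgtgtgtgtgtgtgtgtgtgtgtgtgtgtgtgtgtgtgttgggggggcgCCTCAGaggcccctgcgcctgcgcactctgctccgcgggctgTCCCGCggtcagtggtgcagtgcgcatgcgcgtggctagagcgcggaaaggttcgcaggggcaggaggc
Iho1 canonical start, chr9:108305634-108305933, minus strand: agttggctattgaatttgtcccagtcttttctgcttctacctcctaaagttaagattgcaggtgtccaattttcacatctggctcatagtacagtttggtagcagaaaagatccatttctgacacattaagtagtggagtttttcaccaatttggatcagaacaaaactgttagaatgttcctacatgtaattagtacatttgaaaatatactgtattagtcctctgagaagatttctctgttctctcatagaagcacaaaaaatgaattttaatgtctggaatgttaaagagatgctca
Iho1 outermost start, chr9:108309021-108309320, minus strand: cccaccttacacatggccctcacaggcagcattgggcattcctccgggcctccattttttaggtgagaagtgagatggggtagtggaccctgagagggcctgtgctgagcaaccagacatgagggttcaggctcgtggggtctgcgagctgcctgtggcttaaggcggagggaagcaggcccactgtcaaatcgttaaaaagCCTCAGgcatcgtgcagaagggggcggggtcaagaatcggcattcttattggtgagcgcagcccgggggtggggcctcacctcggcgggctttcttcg
Rec114, chr9:58648832-58649131, minus strand: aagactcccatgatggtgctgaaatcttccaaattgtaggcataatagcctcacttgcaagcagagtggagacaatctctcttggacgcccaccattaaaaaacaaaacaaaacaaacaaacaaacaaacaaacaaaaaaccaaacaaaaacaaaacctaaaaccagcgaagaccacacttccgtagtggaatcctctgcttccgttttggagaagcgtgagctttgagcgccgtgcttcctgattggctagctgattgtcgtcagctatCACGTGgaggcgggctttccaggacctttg

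CCTCAG was present in the start regions of Prdm9 (3 copies, of which 1 began 41 bases before the start), Ankrd31 (64 bases before) and Spo11 (61 bases before), and in none of the other 4 when the canonical start of each gene was used. It was present in 27.2% of the start regions of all 21770 protein-coding genes. For Iho1 the canonical transcript begins 3387 bases inside the outermost annotated start, and its own start region held none of the 3 letter runs. At the outermost start of Iho1, looked at after the canonical one, CCTCAG lies 48 bases before it. With outermost starts for all genes, 4 of 7 members held CCTCAG, against 27.1% of all genes. Mei1, which also rose in XX cells, held none at either start. CACGTG occurred in Mei1 (222 bases before the start) and Rec114 and in 7.81% of all genes, and TCCCGC in Spo11 and Prdm9 and in 22.8% of all genes. These matches are descriptions of letters and not of binding.

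The 7 genes lie on chromosomes 2 (Spo11), 15 (Mei1), 9 (Mei4, Rec114 and Iho1), 13 (Ankrd31) and 17 (Prdm9). On the same strand, annotated genes overlap Mei4 (Gm15896 and Gm37837), Rec114 (Gm20620), Iho1 (Gm25456) and Ankrd31 (Gm55480), and a read in a shared exon may have been assigned to either gene. Levels are given as CPM, in which each count is scaled to the TMM-adjusted total of its library. Counts were primed at the poly(A) tail and not divided by length, so levels are compared between groups and not between genes.

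Total counts per library ran from 1178953 to 5199153. The Y-linked genes Eif2s3y, Ddx3y, Kdm5d and Uty together reached group means of 140.5 to 215 CPM in XY and 2.50 to 9.56 CPM in XX libraries. Germ cell markers (Ddx4, Dazl, Pou5f1 and Dppa3) summed to group means between 1899 and 4781 CPM. The largest group mean of the summed markers was 27.5 CPM for Sertoli cells, 20.1 CPM for pregranulosa cells, 47.0 CPM for interstitial, Leydig and mesonephric cells and 113 CPM for endothelial cells (XX 0 h). The group mean of the blood marker sum was 258 CPM in XY 24 h MEKi and 18.5 to 143 CPM in the other groups. A comparison was called when the limma treat test against a fold change of 1.5 gave a Benjamini-Hochberg adjusted p (FDR) under 0.05 over all genes tested. Replicates are separate pools of gonads only as far as their labels say, so p-values measure the spread between these libraries.

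The libraries were made in 2 pools of 20, and 16 sample indexes were used in both. In pool 1 were both uncultured groups, both 24 h DMSO groups and XY 24 h MEKi. Pool 2 had XY 24 h FGFRi and every 72 h group. Several members had pool 1 counts that were small shares of the counts of the index partner in pool 2. Scaled to their own libraries, the XX 0 h counts also lay close together, at 23.7 to 31.5 CPM for Prdm9 and 15.0 to 18.6 CPM for Ankrd31. Whether these counts came from the partner was not tested. In XX 0 h libraries the count of Prdm9 was 4.10% to 5.98% of that in the XX 72 h library with the same index, that of Ankrd31 3.46% to 6.80% and that of Mei1 2.73% to 6.56%. Y-linked counts in XX 24 h libraries came to 88, compared with 2097 in their index partners, the XY 72 h FGFRi libraries. This is 4.20% (95% Poisson interval 3.37% to 5.17%). The XX 0 h and XX 72 h libraries, which share indexes only with XX libraries, had 21 and 29 Y-linked counts. No such background was taken off, so 4.20% may be too high. It comes from the XX 24 h libraries and was applied to all pool 1 libraries with a partner. When 4.20% of each pool 2 partner was taken off the pool 1 counts, an alternative added after the data were seen, XX 0 h kept 54 of 273 Prdm9 counts, 43 of 174 Ankrd31 counts and 7 of 26 Mei1 counts, and XY 24 h DMSO kept 31 of 80 Prdm9 counts. The counts of XX 24 h DMSO were little altered, with 999 of 1011 Prdm9 counts left. Comparisons of these genes with 0 h are therefore given also with this share taken off.

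**Figure D1:**
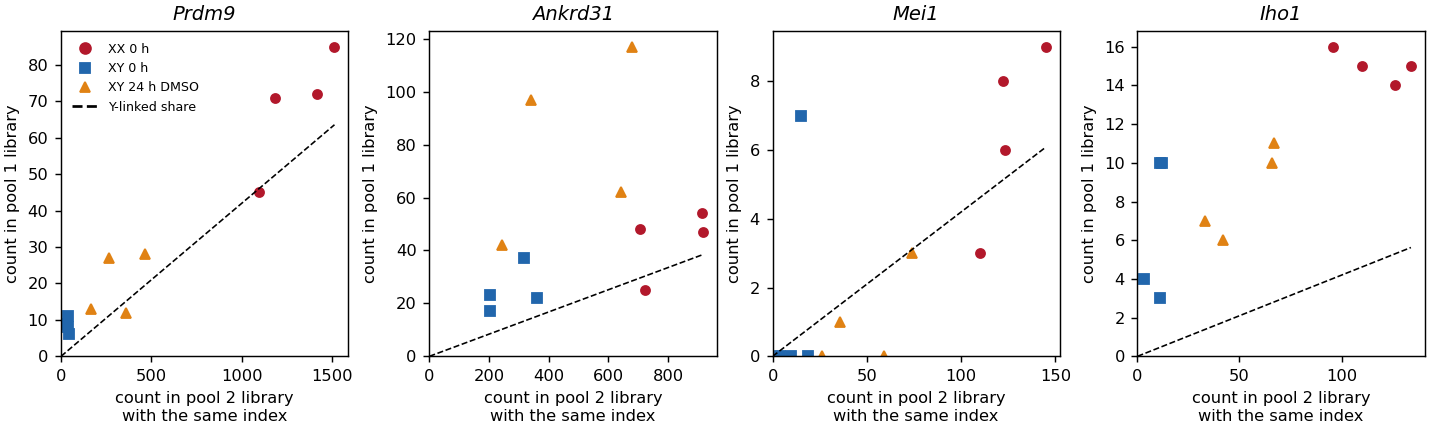
Count of 4 members in each pool 1 library (y axis) against the count in the pool 2 library with the same sample index (x axis), for XX 0 h, XY 0 h and XY 24 h DMSO. The dashed line has the Y-linked share of 4.20% as slope. For Prdm9 the XX 0 h libraries lie at 45 to 85 counts, close to or above the line, with partners at 1097 to 1515 counts.

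In XX germ cells, 5 of the 7 genes rose steeply between 24 and 72 h of culture, and Prdm9 and Ankrd31, with Mei1, had begun to rise by 24 h. In XY germ cells the same period brought a rise in Ankrd31 and Mei1. Mei4 and Rec114 did not pass the test over time in either sex. A lower level in sorted cells can mean fewer cells making the RNA or less RNA per cell, which cannot be told apart here.

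**Figure D2:**
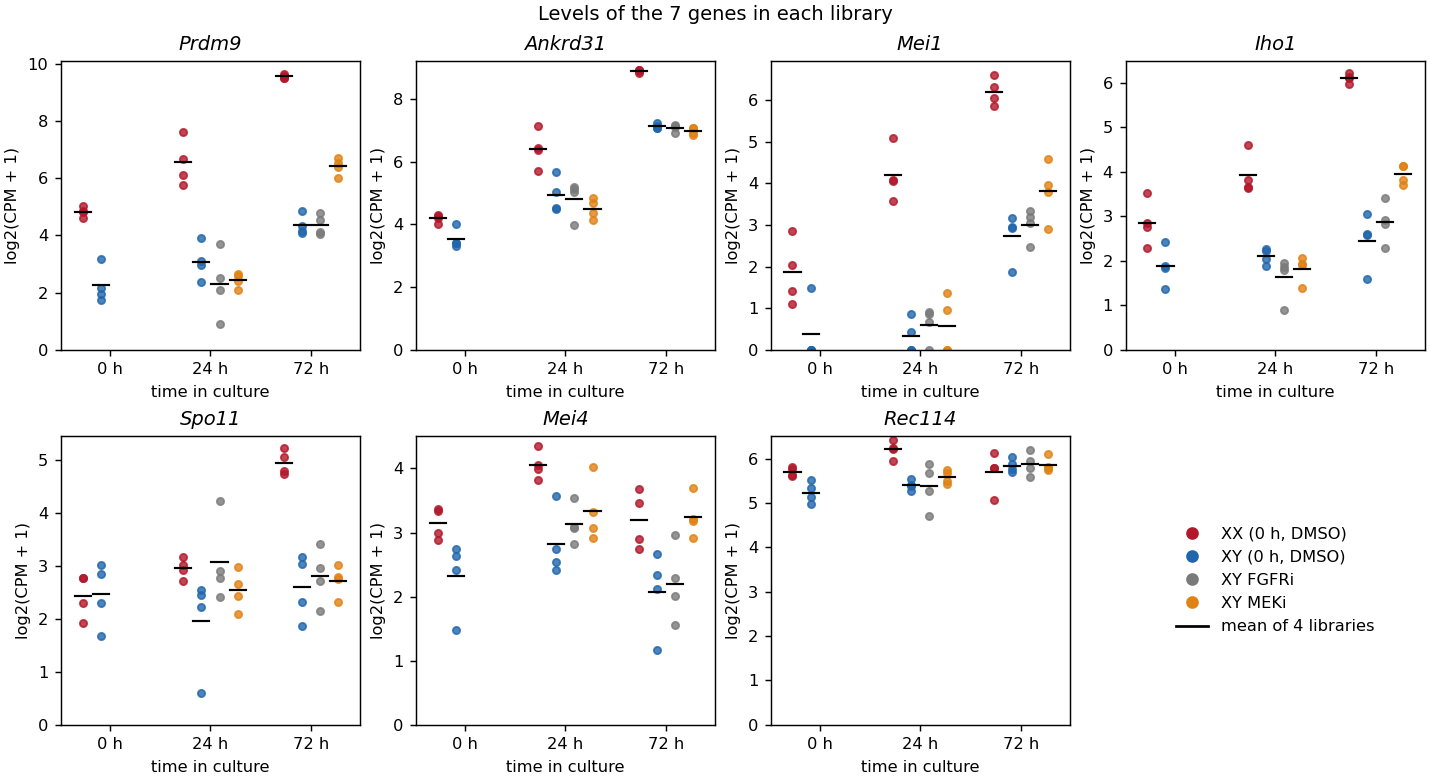
Level of each gene in each library as log2(CPM + 1) (y axis) at 0, 24 and 72 h (x axis), coloured by sex and treatment, with black bars at the mean of the 4 log values. XX libraries at 72 h lie above every XY library for Prdm9, Ankrd31, Mei1, Iho1 and Spo11, and the XY 72 h MEKi libraries lie above the XY 72 h DMSO libraries for Prdm9 and Iho1.

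Prdm9, which encodes the histone methyltransferase that places breaks, was at 31.5, 27.8, 27.5 and 23.7 CPM in the XX libraries at 0 h, at 101, 53.9, 198 and 68.6 CPM at 24 h, and at 811, 732, 734 and 769 CPM at 72 h. None of these 3 groups overlapped. Its mean rose from 27.6 ± 3.18 (SD, n = 4) to 105 ± 64.7 and then to 761 ± 37.1 CPM. The log2 fold change was 1.64 ± 0.22 (SE) from 0 to 24 h (limma treat, FDR = 0.00062) and 3.20 ± 0.16 from 24 to 72 h (FDR = 3.3e-19). With the index share taken off, the first of these was 4.16 ± 0.51 (FDR = 6.1e-07).

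In XY libraries Prdm9 was at 3.51, 2.85, 8.02 and 2.35 CPM at 0 h, at 6.74, 14.1, 4.13 and 7.57 CPM at 24 h and at 17.0, 15.9, 28.0 and 19.2 CPM at 72 h. The 24 h and 72 h groups did not overlap, but the difference of 1.41 ± 0.40 missed the threshold (limma treat, FDR = 0.077). It passed with the index share taken off the 24 h libraries (3.21 ± 0.72, FDR = 0.0018), with edgeR glmTreat (FDR = 0.019), with size factors by relative log expression (FDR = 0.044) and when only the compared groups were fitted (FDR = 0.011). At 72 h the XY DMSO mean was 2.63% of the XX mean.

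Ankrd31 was at 17.5, 18.1, 18.6 and 15.0 CPM in XX libraries at 0 h, at 85.3, 51.0, 141 and 81.8 CPM at 24 h and at 489, 473, 483 and 457 CPM at 72 h. It was the member that rose in XY germ cells at both steps, from 9.65, 9.60, 15.1 and 9.01 CPM at 0 h to 21.8, 50.5, 21.3 and 31.6 CPM at 24 h and 142, 151, 134 and 135 CPM at 72 h. In neither sex did 2 times overlap. The log2 fold change from 24 to 72 h was 2.59 ± 0.14 in XX (limma treat, FDR = 4.2e-17) and 2.29 ± 0.18 in XY cells (FDR = 2.4e-11). From 0 to 24 h it was 2.20 ± 0.21 in XX (FDR = 1.0e-07) and 1.51 ± 0.28 in XY cells (FDR = 0.032). With the index share taken off, the XX value was 4.26 ± 0.45 (FDR = 1.6e-08). The XY step from 0 to 24 h lost its call when XY 0 h replicate 2 (FDR = 0.073), 3 (FDR = 0.25) or 6 (FDR = 0.11), or XY 24 h DMSO replicate 3 (FDR = 0.11) or 5 (FDR = 0.18), was left out. It was also lost with no filter on low counts (FDR = 0.30), without quality weights (FDR = 0.056) and with the 1st percentile of gene ratios between index partners taken off (FDR = 0.64). It kept its call with the Y-linked index share taken off (FDR = 0.030).

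Mei1 was at 6.29, 1.16, 3.10 and 1.67 CPM in XX libraries at 0 h, at 15.9, 10.9, 33.2 and 15.6 CPM at 24 h and at 65.8, 56.8, 97.0 and 78.9 CPM at 72 h. Its log2 fold change was 2.77 ± 0.49 over the first step (limma treat, FDR = 0.0019) and 2.15 ± 0.26 over the second (FDR = 1.3e-06). With the index share taken off, the first was 4.64 ± 0.70 (FDR = 3.1e-05). In XY germ cells Mei1 was close to absent at first, with counts of 0, 7, 0 and 0 at 0 h and 0, 0, 1 and 3 at 24 h, and it was at 6.71, 7.94, 2.66 and 6.64 CPM at 72 h. That last rise was called (log2 fold change 3.58 ± 0.86, FDR = 0.0027), with the 72 h libraries all above the 24 h libraries. With the index share taken off it was 4.93 ± 0.94 (FDR = 9.9e-05). The subtraction left 0 of 4 counts at 24 h, so the size of this value follows from the subtraction.

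Iho1 was at 10.5, 5.79, 6.21 and 3.90 CPM in XX libraries at 0 h, at 11.5, 11.3, 23.3 and 13.2 CPM at 24 h and at 67.5, 69.2, 73.6 and 62.1 CPM at 72 h. The second step was called (2.33 ± 0.20, limma treat, FDR = 2.2e-10). The first was not, although its groups did not overlap (1.26 ± 0.28, FDR = 0.17), and it was called by edgeR glmTreat (FDR = 0.040) and with the index share taken off (FDR = 0.0091). XY group means of Iho1 at 0 h and in DMSO were between 2.81 and 4.81 CPM, and neither step was called.

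Spo11, which encodes the subunit that cuts DNA, was at 2.80, 5.79, 5.82 and 3.90 CPM in XX libraries at 0 h and at 6.53, 7.09, 7.93 and 5.59 CPM at 24 h, groups that overlapped. At 72 h the XX libraries were at 25.7, 26.8, 32.1 and 36.2 CPM, all above those at 24 h (2.16 ± 0.31, limma treat, FDR = 4.5e-05). This call was lost with the replicate number as a block, a fit chosen after seeing the data. XY means at 0 h and in DMSO were between 3.38 and 5.44 CPM and no step was called.

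Mei4 and Rec114 had other courses. Mei4 was highest in XX libraries at 24 h, at 14.9, 15.6, 19.3 and 13.2 CPM, above the 6.41 to 9.27 CPM at 0 h and the 5.68 to 11.8 CPM at 72 h without overlap, but the differences of 1.01 ± 0.27 and -0.89 ± 0.31 did not pass the test against a fold change of 1.5 (limma treat, FDR = 0.54 and 0.43). Both passed limma's test with no fold threshold (eBayes, FDR = 0.0028 and 0.014). Rec114 was at 51.2 ± 3.60, 73.4 ± 9.94 and 52.7 ± 15.0 CPM (SD, n = 4) in XX and at 37.1 ± 6.20, 41.3 ± 3.27 and 56.7 ± 5.81 CPM in XY germ cells at 0, 24 and 72 h. Over all 10 groups its lowest and highest means were 37.1 and 73.4 CPM.

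In counts, XX germ cells had 3 of 7 members higher at 24 than 0 h (Mei1, Ankrd31 and Prdm9), against 2.32% of all genes tested. From 24 to 72 h they had 5 of 7 higher, against 10.3%. XY germ cells had 1 of 7 higher over the first step, against 1.61%, and 2 of 7 over the second, against 16%. The median log2 fold change of the 7 in XX cells was 1.26 and 2.16 for the 2 steps, against 0.05 and -0.10 for all genes. In XY cells it was 0.22 and 0.83, against 0.02 and 0.02. The comparisons of 72 with 24 h are also comparisons of the pools, and time and pool cannot be told apart in them.

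**Figure D3:**
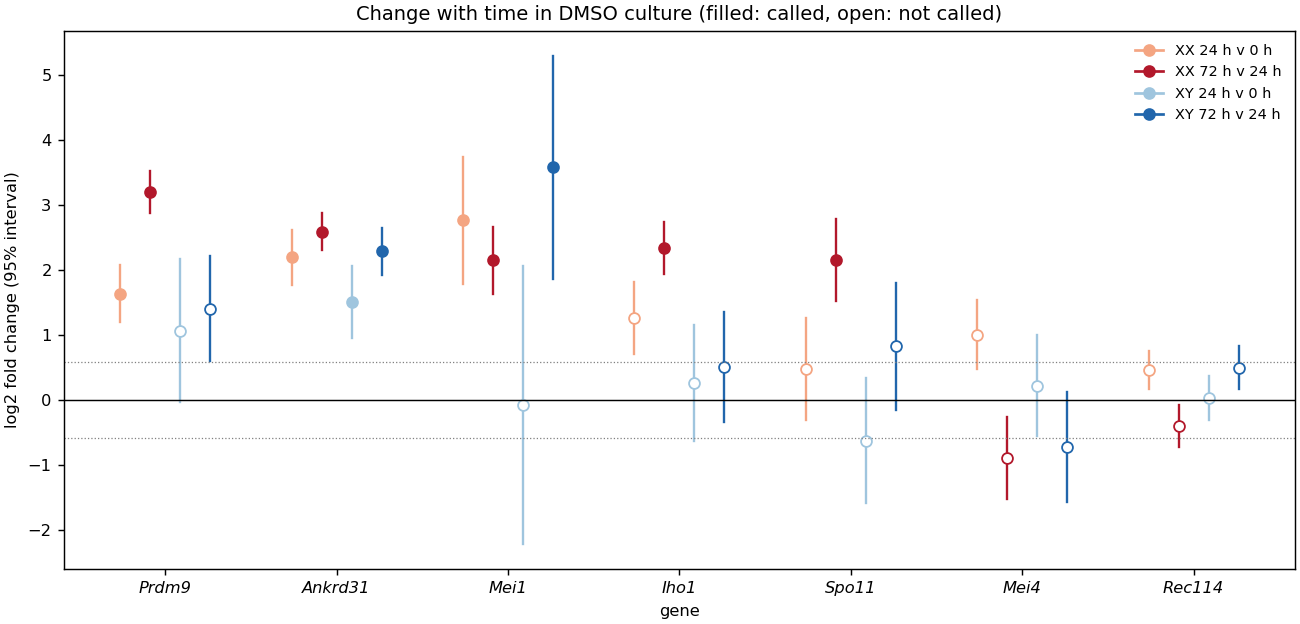
Log2 fold change of each gene with its 95% interval (y axis) from 0 to 24 h and from 24 to 72 h in XX and XY germ cells in DMSO (x axis, genes). Filled points were called, open points were not, and dotted lines mark a fold change of 1.5. Prdm9, Iho1 and Spo11 were called from 24 to 72 h in XX and not in XY cells, while Ankrd31 and Mei1 were called in both.

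The XX 24 h libraries spread widely, and did so together. Replicate 6 had the highest level of all 7 genes among these 4 libraries, and replicate 5 the lowest of 5 of them. Prdm9 was at 198 CPM in replicate 6 and 53.9 CPM in replicate 5, and the 7 genes together summed to between 210.3 and 507 CPM. At 72 h the sum was between 1433 and 1526 CPM in the XX libraries. With each XX library left out in turn, replicate 6 among them, 3 members were still called from 0 to 24 h and 5 from 24 to 72 h.

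XY germ cells were compared with XX germ cells at each time. At 0 h the 1 member called was Prdm9, which was lower in XY cells by 2.94 ± 0.47 on the log2 scale (limma treat, FDR = 0.00027), against 1.65% of all genes called lower. This call rested on the XX 0 h counts described above. With the Y-linked index share taken off it was -0.79 (FDR = 1), with that share halved it was called, and with it doubled the difference changed sign (3.46, FDR = 0.079). No other member was called at 0 h.

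At 24 h Mei1 (-4.98 ± 0.81, FDR = 3.4e-05), Prdm9 (-3.52 ± 0.36, FDR = 5.5e-09), Iho1 (-2.02 ± 0.35, FDR = 0.0018), Mei4 (-1.50 ± 0.31, FDR = 0.027) and Ankrd31 (-1.45 ± 0.19, FDR = 0.00053) were lower in XY cells by limma treat. These 5 of 7 compare with 5.99% of all genes called lower. With the index share taken off the same 5 were called, and the values were larger for Prdm9 (-5.36 ± 0.69, FDR = 3.2e-07) and Mei1 (-6.34 ± 0.90, FDR = 1.3e-06). For Mei1 this left 0 of 4 counts in XY 24 h DMSO, so its larger value follows from the subtraction. The 4 XY libraries lay below the 4 XX libraries for all 7 members, against 17.1% of all genes. Spo11 (-1.08 ± 0.47, FDR = 0.63) and Rec114 (-0.84 ± 0.16, FDR = 0.32) did not pass. The call of Mei4 was lost without XX 24 h DMSO replicate 6 (FDR = 0.059) and without XY 24 h DMSO replicate 4 (FDR = 0.12) or 5 (FDR = 0.30), and also by DESeq2 (FDR = 0.13) and with no filter on low counts (FDR = 0.16).

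At 72 h the same comparison called Prdm9 (-5.32 ± 0.24, FDR = 1.9e-23), Iho1 (-3.84 ± 0.30, FDR = 9.5e-14), Mei1 (-3.55 ± 0.38, FDR = 1.7e-09), Spo11 (-2.41 ± 0.34, FDR = 6.5e-06) and Ankrd31 (-1.75 ± 0.13, FDR = 1.3e-11) by limma treat. All 5 were called lower also in every fit that left out a library. The count of 5 of 7 compares with 18.1% of all genes called lower. Rec114 differed by 0.06 (95% interval -0.27 to 0.39), and Mei4 by -1.33 ± 0.43 (FDR = 0.098). At this time the XY DMSO means stood at 29.6% of the XX mean for Ankrd31, 18.0% for Spo11, 8.02% for Mei1 and 7.06% for Iho1.

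**Figure D4:**
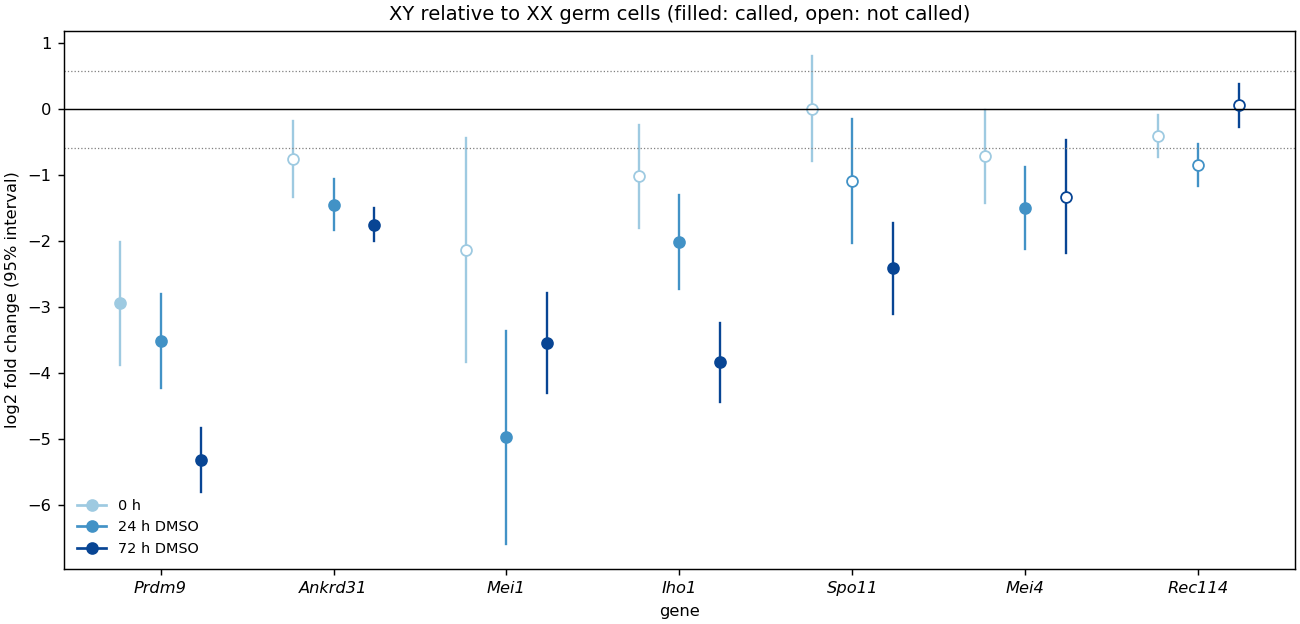
Log2 fold change of XY relative to XX germ cells with its 95% interval (y axis) for each gene (x axis) at 0 h and after 24 and 72 h in DMSO. Filled points were called, open points were not, and dotted lines mark a fold change of 1.5. The point of Prdm9 at 0 h, -2.94, lost its call when the Y-linked index share was taken off.

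Whether the sex difference itself widened was tested as an interaction. From 0 to 24 h no member was called (limma treat; 1 at unadjusted p under 0.05, 0 by edgeR glmTreat and 0 by DESeq2; 0.452% of all genes were called in either direction). With the index share taken off, Mei1 (FDR = 0.016) and Prdm9 (FDR = 0.019) were called, both in the direction of a wider gap at 24 h. The Mei1 call rests on XY 24 h DMSO libraries with 0 of 4 counts left and XX 0 h libraries with 7 of 26 left. From 24 to 72 h the gap widened for Iho1 (-1.83 ± 0.47, FDR = 0.023) and Prdm9 (-1.80 ± 0.43, FDR = 0.017), which is 2 of 7 against 9.93% of all genes. Neither held under all settings. With the index share taken off, the values were -1.49 (FDR = 0.13) and -0.0012 (FDR = 1), and by DESeq2 no member was called. The call of Prdm9 was also lost with no filter on low counts (FDR = 0.075) and without quality weights (FDR = 0.055). The call of Iho1 was lost without XY 72 h DMSO replicate 5 (FDR = 0.070). That of Prdm9 was lost without XX 24 h DMSO replicate 5 (FDR = 0.054) or without XY 24 h DMSO replicate 3 (FDR = 0.057) or 5 (FDR = 0.054), and Spo11 was called without XY 24 h DMSO replicate 2 (FDR = 0.025).

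After 24 h neither inhibitor altered any member by the test in XY germ cells. FGFRi and DMSO gave 0 of 7 called by limma treat (0 at unadjusted p under 0.05, 0 by edgeR glmTreat, 0 by DESeq2; 0.262% of all genes called). By edgeR's quasi-likelihood test with no fold threshold Spo11 was called (FDR = 0.047), with values of 4.34, 6.52, 17.8 and 5.80 CPM with FGFRi, of which the highest stood apart. This comparison is also one of the pools. MEKi and DMSO, within pool 1, gave 0 of 7 (0, 0 and 0 by the same counts; 0.164% of all genes). For Prdm9 the MEKi libraries were at 3.25, 4.25, 5.29 and 4.93 CPM and the difference was -0.68 (95% interval -1.80 to 0.44). The DMSO libraries have index partners, and the MEKi and FGFRi libraries at 24 h have none. With the share taken off, the difference turned to 1.11 ± 0.85 (FDR = 1). For Ankrd31 it was -0.43 (95% interval -0.92 to 0.05), and -0.06 ± 0.28 with the share taken off. For Mei4 the difference with MEKi was 0.76 (95% interval 0.08 to 1.44) and was not called. For Mei1, with counts of 0 to 3 in each of these libraries, the interval was -1.50 to 2.74 with FGFRi and -1.76 to 2.51 with MEKi, and changes within these were not detectable at this depth.

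After 72 h MEKi was followed by higher Prdm9 and Iho1 in XY germ cells, while Ankrd31, Spo11 and Rec114 did not pass the test. Prdm9 was at 82.4, 64.1, 92.0 and 104 CPM with MEKi against 17.0, 15.9, 28.0 and 19.2 CPM with DMSO, with no overlap (2.14 ± 0.25, limma treat, FDR = 3.2e-06). This call held in every fit that left out a library. Iho1 was at 16.4, 12.0, 13.1 and 16.5 CPM against 4.92, 5.02, 2.00 and 7.30 CPM, again with no overlap (1.54 ± 0.31, FDR = 0.023). The Iho1 call was lost without XY 72 h DMSO replicate 2 (FDR = 0.060) or 5 (FDR = 0.16), and by DESeq2 (FDR = 0.075). The count of 2 of 7 compares with 4.01% of all genes called higher.

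Mei1 and Mei4 had higher means with MEKi that did not pass the test against a fold change of 1.5. Mei1 was at 12.9, 6.45, 14.7 and 23.1 CPM with MEKi and at 6.71, 7.94, 2.66 and 6.64 CPM with DMSO, groups that overlapped (1.03 ± 0.40, limma treat, FDR = 0.60). Mei4 was at 11.9, 8.06, 6.54 and 8.23 CPM against 4.03, 1.25, 3.33 and 5.31 CPM, without overlap (1.24 ± 0.38, FDR = 0.27). With no fold threshold both passed (eBayes, FDR = 0.029 for Mei1 and 0.0053 for Mei4). The difference was -0.15 for Ankrd31 (95% interval -0.40 to 0.11), 0.08 for Spo11 (-0.67 to 0.82) and -0.01 for Rec114 (-0.29 to 0.27).

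**Figure D5:**
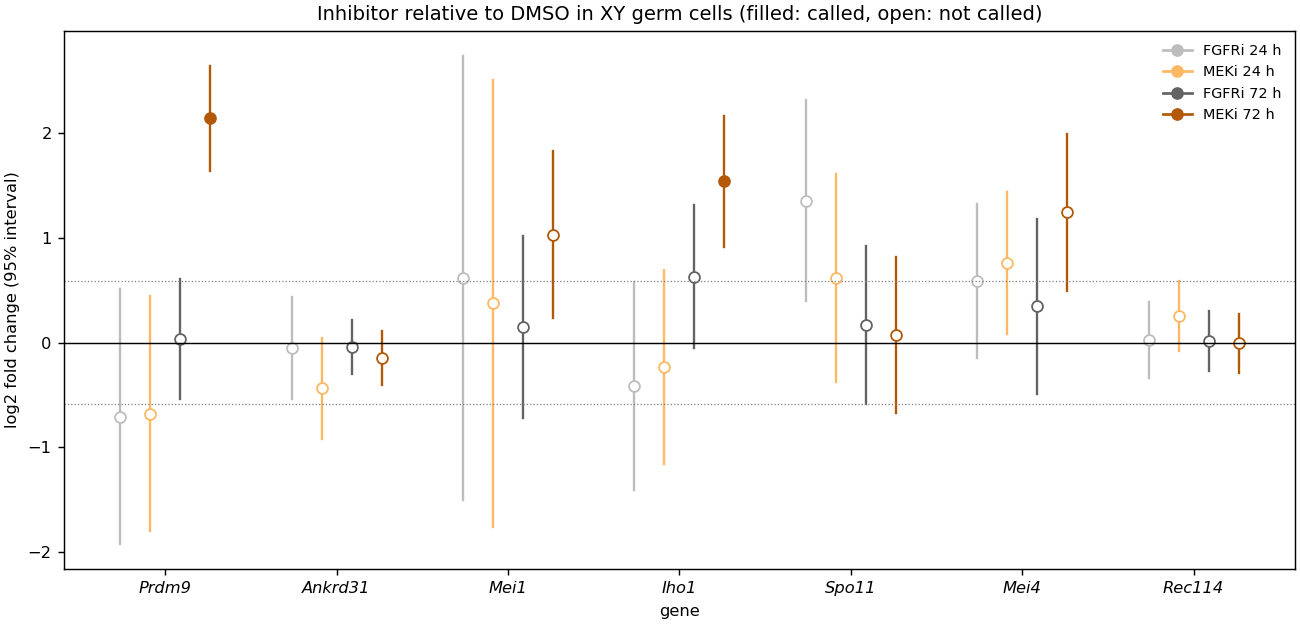
Log2 fold change of inhibitor relative to DMSO with its 95% interval (y axis) for each gene (x axis), for XY cells at 24 h and at 72 h of culture. Filled points were called, open points were not, and dotted lines mark a fold change of 1.5. The filled points are those of Prdm9, at 2.14, and Iho1, at 1.54, with MEKi at 72 h.

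FGFRi at the same dose gave 0 of 7 members called at 72 h by limma treat (0 at unadjusted p under 0.05, 0 by edgeR glmTreat, 0 by DESeq2; 0.00656% of all genes called). Its Prdm9 values were 16.2, 26.2, 22.4 and 15.5 CPM, overlapping those of DMSO, and the difference was 0.03 (95% interval -0.54 to 0.60). The FGFRi libraries share indexes with XX 24 h DMSO libraries, which held 1011 Prdm9 counts against 294 with FGFRi. The 4.20% share was not taken off pool 2 counts. With the 1st percentile of gene ratios between index partners taken off, 98 of 294 FGFRi and 143 of 147 DMSO counts were left. Set directly against FGFRi, MEKi left Prdm9 higher by 2.11 ± 0.21 (limma treat, FDR = 5.3e-08), which is 1 of 7 against 5.71% of all genes called higher. Iho1 did not overlap between these groups but was not called (0.91 ± 0.22, FDR = 0.34). The comparisons of MEKi and FGFRi with DMSO share their control libraries.

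MEKi did not bring XY cells to the XX level. At 72 h Prdm9 in XY MEKi cells was at 11.2% of the XX DMSO mean, Spo11 at 18.8%, Mei1 at 19.1%, Iho1 at 21.3% and Ankrd31 at 26.5%. All 5 were lower than in XX cells (limma treat, log2 differences of -1.90 to -3.17, the largest FDR 9.5e-08), against 12.8% of all genes. Mei4 (-0.08, 95% interval -0.70 to 0.54) and Rec114 (0.06, -0.25 to 0.36) did not differ by the test. At 24 h, within pool 1, XY MEKi cells had 4 of 7 members lower than XX DMSO cells (Mei1, Iho1, Ankrd31 and Prdm9, -1.88 to -4.60), against 5.52% of all genes.

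The MEKi effect on Prdm9 at 72 h exceeded that at 24 h by 2.82 ± 0.61 (limma treat, FDR = 0.023), the 1 member called in this interaction, against 1.21% of all genes called higher. In XY 24 h DMSO the counts of Prdm9 were 3.35% to 10.2% of those in their index partners, which are XY 72 h MEKi libraries. They did not keep the order of the partners, with 13 counts in replicate 2 (partner 166) and 12 in replicate 4 (partner 358). With the Y-linked share taken off, the interaction was 1.03 (FDR = 1). It was also lost without XY 24 h DMSO replicate 5 (FDR = 0.069), XY 24 h MEKi replicate 1 (FDR = 0.077) or XY 72 h DMSO replicate 4 (FDR = 0.057), with no filter on low counts (FDR = 0.052) and without quality weights (FDR = 0.064). The Prdm9 difference between MEKi and DMSO at 72 h was 2.14 ± 0.28 (FDR = 2.9e-05) with that share taken off. Only pool 1 counts were altered and both groups are in pool 2, so this fit could not test them for shared indexes.

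Beside the MEKi result at 72 h, the 6 blood markers, all detected in both groups, summed to 12.7 to 28.5 CPM with MEKi and 32.2 to 61.7 CPM with DMSO, without overlap. The 3 Sertoli markers, all detected, summed to 13.9 to 31.2 and 9.99 to 19.7 CPM, and the germ cell markers to 2056 to 3353 and 2152 to 2555 CPM, with overlap. The part of these other cells in the result was not tested. Between MEKi and FGFRi at 72 h, the interstitial, Leydig and mesonephric markers summed to 33.5 to 61.4 and 24.7 to 33.2 CPM, without overlap, and their part in the Prdm9 difference was not tested. Beside the rise in XX cells from 24 to 72 h, the 6 interstitial, Leydig and mesonephric markers, of which 5 were detected, summed to 10.9 to 17.8 CPM at 24 h and 36.1 to 58.2 CPM at 72 h, and the 3 endothelial markers to 60.0 to 109 and 5.16 to 9.70 CPM. The 3 pregranulosa markers summed to 4.73 to 10.6 and 14.7 to 35.9 CPM, and the germ cell markers to 2379 to 2942 and 1760 to 2003 CPM. Beside the XY rise of Ankrd31 and Mei1 over the same step, the sums went from 17.3 to 22.3 CPM to 36.6 to 52.8 CPM for interstitial, Leydig and mesonephric markers, from 3.63 to 6.25 CPM to 10.7 to 14.6 CPM for pregranulosa markers, from 30.7 to 94.9 CPM to 14.2 to 21.5 CPM for endothelial markers and from 3137 to 4387 CPM to 2152 to 2555 CPM for germ cell markers. None of these ranges overlapped between 24 and 72 h, and their part was not tested either. From 0 to 24 h in XY cells, the step at which Ankrd31 was called, the endothelial sum went from 98.0 to 114 CPM to 30.7 to 94.9 CPM, without overlap, and its part was not tested.

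Marker sums also separated the sexes without overlap. At 0 h Sertoli markers summed to 7.004 to 21.4 CPM in XY and 1.40 to 4.27 CPM in XX libraries. At 24 h in DMSO they summed to 7.91 to 71.0 and 1.60 to 5.45 CPM, and germ cell markers to 3137 to 4387 and 2379 to 2942 CPM. At 72 h in DMSO the XY and XX sums were 14.2 to 21.5 and 5.16 to 9.70 CPM for endothelial, 32.2 to 61.7 and 16.5 to 21.4 CPM for blood, 10.7 to 14.6 and 14.7 to 35.9 CPM for pregranulosa and 2152 to 2555 and 1760 to 2003 CPM for germ cell markers. In XY MEKi libraries, Sertoli (18.5 to 22.8 CPM), blood (156 to 436 CPM), interstitial, Leydig and mesonephric (20.9 to 38.8 CPM) and germ cell sums (3788 to 4265 CPM) lay above XX DMSO at 24 h, and at 72 h Sertoli (13.9 to 31.2 against 4.01 to 11.2 CPM), endothelial (9.93 to 26.6 CPM) and germ cell sums (2056 to 3353 CPM) did. Their part in the differences between XY and XX cells was not tested.

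In the order of group means, XX 72 h DMSO came first for Prdm9, Ankrd31, Mei1, Iho1 and Spo11, and its libraries did not overlap those of the group that came next. For Prdm9 the order continued with XX 24 h DMSO and XY 72 h MEKi, which overlapped, then XX 0 h, the XY 72 h FGFRi and DMSO groups and, below them without overlap, XY 24 h DMSO and the remaining XY groups. The place of XX 0 h rests on 273 counts, of which 54 were left with the index share taken off. For Ankrd31 the 3 XY 72 h groups came next and overlapped each other, at 126 to 141 CPM. Below the first place of Spo11, every neighbouring pair of groups overlapped. For Mei4 and Rec114 XX 24 h DMSO came first and each neighbouring pair overlapped.

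Across the 10 group means of log2 CPM, the members moved together to different degrees. Pearson's r was 0.989 for Iho1 with Prdm9, 0.965 for Mei1 with Prdm9 and 0.947 for Mei1 with Iho1. Ankrd31 followed Prdm9 less closely (0.819), and r was 0.021 for Mei4 with Ankrd31. Of 15011 genes with a symbol, the 3 whose pattern was most like that of Prdm9 were Spdya (0.994), M1ap (0.992) and Iho1 (0.989), and for Ankrd31 they were Ccdc181 (0.995), Usp3 (0.995) and Senp7 (0.991). For Mei1 they were Strip2, Macrod2 and Ube2t, for Iho1 Ddb2, Prdm9 and H2-K1, for Spo11 Ssmem1, Mettl5os and 6430573P05Rik, for Mei4 Cdkn2d, 2900005J15Rik and Rfx5, and for Rec114 Gas7, Zfp872 and Rusc1, with r between 0.943 and 0.993. These values describe 10 means that share libraries, pools and treatment, and carry no test.

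Of 8 genes whose products work beside the members, as SPO11's partner, on chromosome axes or with PRDM9 (Top6bl, Hormad1, Hormad2, Zcwpw1, Zcwpw2, Hells, Cxxc1 and Ewsr1), 5 rose in XX cells from 24 to 72 h, against 10.3% of all genes, and 6 were lower in XY than XX cells at 72 h, against 18.1%. Top6bl, the partner of Spo11, went from 3.83 ± 1.4 to 12.8 ± 5.8 and 60.1 ± 11 CPM in XX cells (72 against 24 h, 2.40, limma treat, FDR = 9.1e-09) and was at 6.71 ± 3.1 CPM in XY cells at 72 h. Zcwpw2, a reader of the marks PRDM9 leaves, went from 16.4 ± 5.4 to 62.6 ± 33 and 324 ± 22 CPM in XX cells (2.63, FDR = 5.4e-17). Cxxc1 went the other way, being higher in XY than XX cells at 72 h (0.93, FDR = 0.0051), as were 22.8% of all genes. With MEKi at 72 h 1 of the 8 was higher than with DMSO, against 4.01% of all genes. This was Hormad2, at 39.5 ± 6.9 against 13.0 ± 2.0 CPM (1.55, FDR = 0.00091). Top6bl was at 12.1 ± 2.7 CPM with MEKi and was not called. The median log2 change of the list with MEKi was 0.42, against 0.01 for all genes.

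Of 8 genes that process or signal breaks (Mre11a, Rad50, Nbn, Rbbp8, Exo1, Atm, H2ax and Mdc1), none rose by the test in XX cells from 24 to 72 h (limma treat) and 1, Exo1, fell by 0.99 (FDR = 0.022), against 11.9% of all genes called lower. At 72 h 6 were lower in XY than XX cells, against 18.1% of all genes. In XY cells 3 had fallen since 24 h, against 11.3% of all genes: Exo1 by 2.03, H2ax by 1.74 and Mdc1 by 1.23 on the log2 scale. With MEKi at 72 h the same 3 were higher than with DMSO, against 4.01% of all genes. H2ax, the histone that is phosphorylated at breaks, was at 243 ± 29 CPM against 63.9 ± 8.0 CPM (1.89, FDR = 1.3e-11), Mdc1 at 138 ± 6.9 against 43.2 ± 2.8 CPM (1.69, FDR = 1.7e-07) and Exo1 at 81.0 ± 4.1 against 27.2 ± 3.4 CPM (1.55, FDR = 2.5e-05). In XY cells at 0 h these 3 stood at 209 ± 34, 102 ± 11 and 148 ± 11 CPM, whereas Prdm9 and Iho1 were at 4.18 and 2.81 CPM at 0 h and at 85.6 and 14.5 CPM after 72 h with MEKi. The median of the list with MEKi was 0.69, against 0.01 for all genes.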

How the data were processed

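Sorted germ cells were profiled in 40 libraries, which fall into 10 groups of 4 by their labels. The authors deposited raw counts of unique molecular identifiers per gene, made with scPipe and Rsubread on the mouse genome GRCm39, from poly(A)-primed libraries. Total counts per library set the precision, and counts of a few molecules leave wide intervals. Rows of the table were matched to GENCODE M39 (40391 of 42422 genes), from which symbols, positions and start sequences were taken with samtools 1.23.1. Members and lists were chosen with earlier results of these data known.

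Genes were filtered with edgeR 4.0.16 (filterByExpr, minimum count 10, minimum total 15), leaving 15252 genes and 99.2% of counts. All libraries were fitted with limma 3.58.1 in R 4.3.3 (TMM scaling, voomWithQualityWeights, and treat against a fold change of 1.5), with Benjamini-Hochberg adjustment over all genes tested. Intervals are 95%. Genes described were the 7 members, 2 lists of 8 related genes, and the 3 genes most alike in pattern to each member, leaving out genes with no symbol. The fit was tested on simulated data. The pairs of replicates of a group differed by more than sampling noise. Alternatives were relative log expression size factors, no filter, edgeR, DESeq2 1.42.0, limma eBayes, voom without weights, only the groups compared, a replicate block, each library left out, and shares of counts taken off for shared indexes.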

Additional observations from a re-analysis of the deposited data

Results flagged for a closer look

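In 4 of the 70 combinations of gene and group, 1 library stood apart from the other 3 by Dixon's test, which chance gives in about 1 in 20. Spo11 was at 17.8 CPM in XY 24 h FGFRi replicate 4 and at 4.34 to 6.52 CPM in the others. Mei1 was at 1.82 CPM in XY 0 h replicate 3 and at 0 in the others. Iho1 was at 23.3 CPM in XX 24 h DMSO replicate 6 and at 11.3 to 13.2 CPM in the others. Ankrd31 was at 15.1 CPM in XY 0 h replicate 5 and at 9.01 to 9.65 CPM in the others.

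The effect of sex differed between 24 and 72 h for Iho1 by -1.83 and for Prdm9 by -1.80 on the log2 scale, and the effect of MEKi on Prdm9 differed between these times by 2.82. All 3 differences were tested as interactions, and all 3 lost their call when the Y-linked index share was taken off.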

How the results depend on the processing

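Counts of members called are given as the main value and then under each alternative that moved them by more than 1.5 times or from 0. With no fold threshold, edgeR's quasi-likelihood test called 6 members and limma eBayes 6 for XX 24 against 0 h (main 3), 4 and 4 for XY 72 against 24 h (2), 3 and 4 for XY against XX at 0 h (1), 4 and 4 for MEKi against DMSO at 72 h (2), 4 and 4 for MEKi against FGFRi at 72 h (1), and 2 and 2 for the MEKi interaction (1); the first test also called 1 for FGFRi at 24 h (0) and 4 for the sex interaction from 24 to 72 h (2). DESeq2 called 1 for MEKi against DMSO at 72 h and 0 for the sex interaction from 24 to 72 h. Without the filter or without quality weights, 0 were called for XY 24 against 0 h (1), 1 for the sex interaction from 24 to 72 h and 0 for the MEKi interaction. With the Y-linked index share taken off, 0 were called for XY against XX at 0 h, 2 for the sex interaction from 0 to 24 h (0), and 0 for the other 2 interactions; with it doubled, 0 were called for XY against XX at 0 h and Prdm9 reversed there (3.46).

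Taking off the 1st percentile of gene ratios between index partners removed up to 51.4% of partner counts. It gave 0 called for XY 24 against 0 h, 4 for XY 72 against 24 h, 0 for XY against XX at 0 h, 1 each for FGFRi and MEKi at 24 h, 4 for MEKi against FGFRi at 72 h and 4 for the sex interaction from 0 to 24 h. Values reversed for Prdm9 in XY against XX at 0 h (2.77), for Ankrd31 with FGFRi (4.83) and MEKi (4.43) at 24 h, for Ankrd31 (4.53), Iho1 (1.36) and Prdm9 (3.29) in the sex interaction from 24 to 72 h, and for Ankrd31 (-4.34) and Prdm9 (-1.76) in the MEKi interaction. Apart from what the construction of these alternatives shows, the cause was not tested.

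In no comparison with 2 or more shared numbers did all same-numbered samples deviate together, so they are taken to share only a number. The single shared pairs in the comparisons of XY DMSO and XY MEKi with XX at 72 h had r of 0.018 and 0.039. With the replicate number as a block, 0 members were called for XY 24 against 0 h (Ankrd31 FDR = 0.096), and the counts for the other comparisons with 2 or more shared numbers did not move. For XX 72 against 24 h, both comparisons of XY with XX at 72 h and the sex interaction from 24 to 72 h, which share fewer numbers, the same block in the fit over all libraries was chosen after seeing the data. It called 4, 5, 5 and 1 members, with Spo11 lost in XX 72 against 24 h (FDR = 0.056) and Prdm9 in the interaction (FDR = 0.067).

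With each library left out, counts ran from 0 to 1 for XY 24 against 0 h, 4 to 5 for XY against XX at 24 h, 1 to 2 for MEKi against DMSO at 72 h, 1 to 3 for the sex interaction from 24 to 72 h and 0 to 1 for the MEKi interaction, and did not move in the other comparisons. Size factors by relative log expression moved the median of all genes by 0.11 (log2) for XX and by 0.12 for XY in 72 against 24 h. Over the 7 members, other settings left 1165 values the same, 19 weaker, 65 stronger, 64 moved and 9 reversed. Same means a call kept, or a value called in neither fit that moved by at most 1 SE. Reversed counts sign changes only where either fit gave a call, so sign changes of uncalled values fall under same or moved. These settings were not run for the 2 lists of related genes. Depth limits Mei1 most, with 4 counts over the XY 24 h DMSO libraries.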
